A study of Homo sapiens with 8 samples.

Results

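Integrins are cell-surface receptors made of 1 alpha and 1 beta subunit, which bind extracellular matrix outside the cell and link to the actin cytoskeleton through short cytoplasmic tails. The 8 genes described here are the alpha-V subunit (ITGAV), the beta subunits beta-3, beta-4, beta-5, beta-6 and beta-8 (ITGB3, ITGB4, ITGB5, ITGB6, ITGB8) and 2 genes named for proteins that bind integrin tails (ITGB1BP1 and ITGB3BP). They were chosen by gene symbol from a table of 58206 genes, and all 8 symbols matched an Ensembl gene identifier of that table. Of the 8 members, 5 had enough counts to be tested and 3 did not.

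RNA was sequenced from Alexander1 cells, an established epithelial line from a human hepatocellular carcinoma. The parental group held 4 libraries with the genotype wt (Axin1 -): according to the series text the line's own Axin1 lacks the stretch to which the kinase GSK3 binds, and its Wnt signalling is always on. The Axin1-restored group held 4 libraries with the genotype Axin1 +, a stable derivative given full-length Axin1 on a plasmid. The treatment field reads the same for all 8 samples, parental ones included: VSVG retroviral transfer of that plasmid and selection of clones in hygromycin B. It therefore does not show whether the parental cells were infected or selected too. How many clones were used is not given, so effects of Axin1 and of picking a clone cannot be told apart. All cells grew in the same serum-containing medium. The labels do not say whether the 4 libraries of a group came from separate cultures, so p-values measure the spread between these libraries.

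Library totals ran from 11232951 to 26400782 counts, so that 3 counts corresponded to between 0.108 and 0.267 CPM (counts per 1000000 of the scaled library total). AXIN1 mRNA was not higher in the Axin1-restored libraries, with 52.4 CPM ± 3.49 in the parental and 45.4 CPM ± 5.13 in the restored-labelled group (SD, n = 4 each, edgeR quasi-likelihood test, adjusted p = 0.267), so every direction below rests on the labels. All 9 hepatocyte markers and all 3 general epithelial markers exceeded 1 CPM in every library. Of the endothelial, fibroblast, leukocyte and platelet markers, 14 of 18 stayed under 1 CPM everywhere. The exceptions included PECAM1, which rose from 5.18 to 48.2 CPM, and the leukocyte list's lysozyme gene LYZ. Replicate 1 of each group stood apart from the rest of its group over the tested genes, not only in single ones. Libraries of a group were compared in pairs over the tested genes by chi-square per degree of freedom, which also grows with depth. It was 57.7 to 92.0 for pairs with parental replicate 1 and 9.19 to 19.55 for the other parental pairs. Pairs with restored replicate 1 gave 53.4 to 63.8, and the other restored-labelled pairs 19.7 to 42.05. ALB, encoding albumin, was at 46.7 CPM in parental replicate 1 and 13.8 CPM in restored replicate 1, against 159 to 208 and 445 to 681 CPM in the other libraries of the 2 groups. Every mean below is given with the SD over the 4 libraries of its group.

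Alpha-V is the most versatile integrin alpha subunit and pairs with beta-1, beta-3, beta-5, beta-6 or beta-8. Most of these dimers recognise the arginine-glycine-aspartate motif of ligands such as vitronectin, fibronectin and the latent form of TGF-beta. Beta-4 pairs only with alpha-6 and anchors epithelial cells to laminin through hemidesmosomes, with a very long tail that binds plectin. Most beta tails carry the NPxY motif, in which asparagine, proline, any residue and tyrosine follow each other, and it is there that talin and other adaptors bind.

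The coding ends of the 5 beta subunits that can pair with alpha-V are shown because these tails, where the adaptors below bind, set the subunits apart from each other. Each line gives the last 132 bases (44 codons) before the stop codon in the principal transcript of GENCODE 29 on GRCh38, in the coding sense, with in-frame codons for NPxY in capitals.
ITGB1: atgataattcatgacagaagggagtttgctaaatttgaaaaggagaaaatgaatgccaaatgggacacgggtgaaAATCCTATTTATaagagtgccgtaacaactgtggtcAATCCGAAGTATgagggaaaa
ITGB5: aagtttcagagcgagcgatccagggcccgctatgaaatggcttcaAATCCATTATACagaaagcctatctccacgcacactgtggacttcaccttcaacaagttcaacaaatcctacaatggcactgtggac
ITGB3: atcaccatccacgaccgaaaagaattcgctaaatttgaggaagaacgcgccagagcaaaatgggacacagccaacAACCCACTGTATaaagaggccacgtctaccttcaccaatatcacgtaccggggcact
ITGB6: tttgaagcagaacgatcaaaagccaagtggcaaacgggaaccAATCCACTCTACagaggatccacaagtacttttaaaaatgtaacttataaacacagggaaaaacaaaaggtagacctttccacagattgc
ITGB8: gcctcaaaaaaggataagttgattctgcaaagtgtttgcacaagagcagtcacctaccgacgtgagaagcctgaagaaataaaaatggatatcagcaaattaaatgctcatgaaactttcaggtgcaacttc
Only exact NPxY codons are marked, so variants with another residue in place of proline stay in lower case. In these stretches ITGB1 carried 2 such sites, ITGB5, ITGB3 and ITGB6 carried 1 each and ITGB8 carried 0. The beta-4 coding sequence, at 1822 codons the longest of the 6 examined, held 0 in its whole length.

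ITGAV (ENSG00000138448, chromosome 2, 186590065 to 186680901, plus strand, GRCh38) encodes the alpha-V subunit itself. Parental libraries 1 to 4 gave 19.2, 37.5, 44.6 and 48.8 CPM, and the Axin1-restored libraries gave 53.7, 28.98, 39.9 and 63.7 CPM in the same order. The groups overlapped widely, with parental replicate 1 lowest of all and restored replicate 4 highest. Mean levels were 37.5 CPM ± 13.1 and 46.6 CPM ± 15.3 (SD, n = 4 each). The log2 fold change (log2FC, always restored-labelled over parental) came to 0.31 ± 0.29 SE (quasi-likelihood test of edgeR, adjusted p = 0.486). The 95% interval of the fold ran from 0.794 to 1.95, so the data exclude neither a small decrease nor a rise close to its upper end. The estimate was 0.10 without parental replicate 1, 0.13 without restored replicate 4, 0.03 without replicate 1 of both groups and 0.15 with an offset for the GC content and length of genes.

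The 5 genes whose profile over the 8 libraries lay nearest to that of ITGAV were TRUB1, ATE1, WDFY1, RAD21 and TOP2B. Nearness was the root mean square difference of log2 CPM values centred on their mean, at 0.0958 to 0.126 against a median of 0.593 for all genes tested. Each had its lowest value in parental replicate 1 and its highest in restored replicate 4, as ITGAV did, and their edgeR adjusted p for the group difference lay between 0.373 and 0.686. Both traits follow largely from choosing these genes by their nearness to ITGAV.

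ITGB5 (ENSG00000082781, chromosome 3, 124761948 to 124901418, minus strand) encodes beta-5, whose dimer with alpha-V is a vitronectin receptor. Its 4 parental values were 170.7, 277, 234 and 260.1 CPM, and its 4 restored-labelled values were 258, 195, 248 and 225 CPM. Every restored-labelled value fell inside the parental range. Mean levels were 235 CPM ± 46.6 and 231 CPM ± 27.9 (SD, n = 4 each), for a log2FC of -0.03 ± 0.16 SE and an edgeR adjusted p of 0.930. The 95% interval of the fold, 0.766 to 1.26, ended below the 2.16-fold estimate for ITGB1. The sign of this small value depended on the scaling and on single libraries, and no alternative placed it past the threshold.

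The other partners of alpha-V were barely detected. ITGB3 (ENSG00000259207, chromosome 17, 47253846 to 47311816), the beta subunit best known from platelets and osteoclasts, had 0 counts in all 4 parental libraries and 1, 2, 0 and 0 in restored-labelled replicates 1 to 4. ITGB6 (ENSG00000115221, chromosome 2, 160099666 to 160200313), an epithelial subunit whose dimer activates latent TGF-beta, had 3, 1, 0 and 0 counts in the parental and 2, 0, 0 and 2 in the restored-labelled libraries. ITGB8 (ENSG00000105855, chromosome 7, 20330702 to 20415754), another activator of latent TGF-beta, had 0, 0, 1 and 1 counts in the parental libraries and 0 in all 4 restored-labelled ones. All 3 genes thus held at most 3 counts in each library, and at this depth no difference between the groups could be measured for them. A count of 0 allows up to 3 counts, that is up to 0.267 CPM in a parental and up to 0.248 CPM in a restored-labelled library, counting error only. Of the ITGB3 exon bases 51.6% overlap AC068234.1 on the same strand, and of the ITGB6 exon bases 20.6% overlap AC092153.1 on the same strand. How reads in shared exons were counted is not given in the sources used here. Their part in the low counts was not tested, and the limits above do not cover it.

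ITGB1, the beta subunit named in the series title, also pairs with alpha-V and was the comparison gene. It was higher in the restored-labelled libraries (224 to 544 against 602 to 1185 CPM, log2FC 1.11 ± 0.27 SE, a fold of 2.16, edgeR adjusted p = 0.0178), a call lost without restored replicate 4 (adjusted p = 0.0610). Counts per kilobase of exon allow the subunits to be compared with each other. On that scale ITGB1 took 58.4%, 64.3%, 71.4% and 65.2% of the summed beta-1, beta-3, beta-5, beta-6 and beta-8 counts in parental replicates 1 to 4 and 80.4%, 76.8%, 79.3% and 85.0% in the restored-labelled ones. ITGB5 made up nearly all of the rest, at 35.1% ± 5.25 in the parental and 19.6% ± 3.41 in the restored-labelled group (SD, n = 4 each), and the ranges of the groups did not overlap. ITGB3, ITGB6 and ITGB8 each stayed at or under 0.0892% in every library. When ITGB1 was left out of the sum, ITGB5 accounted for 99.785% in parental replicate 1 and for more in every other library. These shares are descriptions of mRNA, without a test. ITGB1 and ITGB5 fill nearly the whole sum, so the lower ITGB5 share largely restates the higher ITGB1 level. It is no separate result about ITGB5. How much of each beta subunit is bound to alpha-V was not measured, and beta-1 has many other alpha partners.

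**Figure D1:**
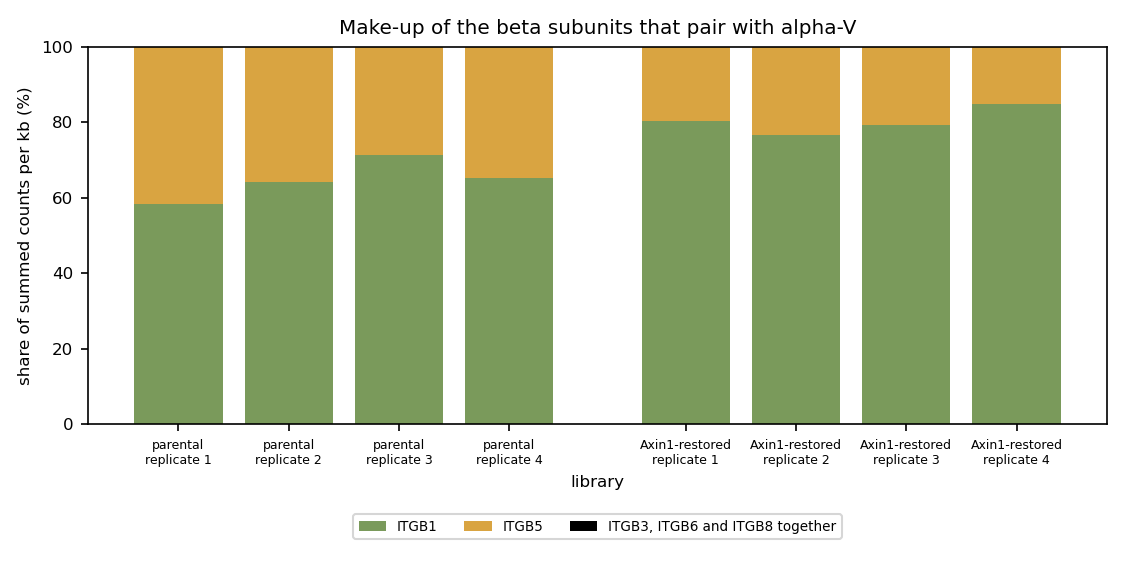
Share of each library's summed counts per kilobase of exon (y axis, percent) taken by ITGB1 (green), ITGB5 (yellow) and ITGB3, ITGB6 and ITGB8 together (black, too small to see), for the 4 parental and 4 Axin1-restored libraries (x axis). The ITGB5 share, which mirrors the ITGB1 share, lies between 28.6% and 41.5% in parental and between 15.04% and 23.2% in restored-labelled libraries.

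Ratios within a library do not depend on how libraries are scaled. The log2 ratio of ITGB1 to ITGAV was 3.54, 3.63, 3.61 and 3.22 in parental replicates 1 to 4 and 4.19, 4.38, 4.47 and 4.22 in the restored-labelled ones, a difference of 0.81 between the means. That of ITGB1 to ITGB5 differed by 1.16, from 0.79 ± 0.34 to 1.95 ± 0.33 (SD, n = 4 each). Both were higher in 4 of 4 restored-labelled libraries than in any parental one. An exact two-sided permutation test gave p = 0.0286 for each, the smallest that 4 against 4 libraries allow, and p = 0.0571 after Benjamini-Hochberg adjustment over the 4 ratios examined. The ratio of ITGB5 to ITGAV (difference -0.34 in log2, exact permutation p = 0.286, adjusted p = 0.286) and that of ITGA5, the fibronectin receptor's alpha subunit, to ITGAV (difference -0.48, exact permutation p = 0.171, adjusted p = 0.229) overlapped between the groups. ITGB1 therefore exceeded ITGAV 15.6 ± 1.95-fold per kilobase in the parental and 27.2 ± 2.48-fold in the restored-labelled libraries (SD, n = 4 each). ITGB5 exceeded ITGAV 8.54 ± 2.23-fold and 6.77 ± 1.83-fold. These ratios were chosen after the values were seen, when ITGB1 was already known not to overlap between the groups. The tests of the ratios with ITGB1 therefore largely restate its difference. They are no separate result about ITGAV or ITGB5.

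ITGB4 (ENSG00000132470, chromosome 17, 75721328 to 75757818, plus strand) was the member whose reading depended most on a single library. Parental replicates 1 to 4 held 39.2, 26.7, 23.7 and 15.96 CPM. Restored replicate 1 held 49.5 CPM, against 9.49, 11.8 and 10.5 CPM in restored replicates 2 to 4. The last 3 libraries lay below every parental value, while restored replicate 1, with 1380 counts, lay above all of them. Over all 8 libraries the log2FC was -0.36 ± 0.50 SE (edgeR adjusted p = 0.650), with an interval of the fold from 0.360 to 1.68. Without restored replicate 1 it was -1.31 ± 0.27 SE (edgeR adjusted p = 0.0082), and without replicate 1 of both groups -1.06 ± 0.20 SE (adjusted p = 0.0014). In those analyses 22% and 32.3% of all genes tested passed the same threshold. Both leave out the library where ITGB4 stood apart, and the second was chosen with the values known. With any other single library left out the log2FC lay between -0.54 and -0.11 (edgeR adjusted p 0.521 to 0.896). It was -0.11 without parental replicate 1 and -0.13, -0.17 and -0.14 without restored replicates 2, 3 and 4.

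KRT19, a keratin of bile duct and progenitor cells, was at 34.4 CPM in restored replicate 1 and at 1.43 CPM or less in the other restored-labelled libraries, and at 16.9, 3.99, 2.49 and 1.29 CPM in parental replicates 1 to 4. Parental replicate 1 was thus the highest parental library for both genes. The summed level of the 4 cholangiocyte markers, KRT19 included, was 68.9 CPM in restored replicate 1 and 52.8 CPM in parental replicate 1, and 21.97 to 32.4 CPM in the other 6 libraries. The list's other genes did not stand apart in restored replicate 1: SOX9 was at 28.6 CPM there and 26.8 CPM in restored replicate 2, and KRT7 at 5.70 and 5.12 CPM. In parental replicate 1, KRT7 was at 12.4 CPM, against 1.86 to 3.12 CPM in the other parental libraries. EPCAM, of the same list, stayed under 1 CPM in all 8. The part of these genes in the ITGB4 difference was not tested, and in bulk RNA fewer expressing cells and less RNA per cell cannot be told apart.

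The partner of beta-4 did not follow it. ITGA6, encoding alpha-6, was at 23.4 to 48.5 CPM in the parental and 93.8 to 148 CPM in the restored-labelled libraries (log2FC 1.66 ± 0.25 SE, edgeR adjusted p = 0.0014). In restored replicates 2 to 4 it was therefore high where ITGB4 was lowest. Of the 9 genes on the list of alpha-6 beta-4 hemidesmosome components and laminin chains, 7 were tested, 3 rose (ITGA6, LAMB3 and LAMA5) and 2 fell (LAMA3 and DST), or 71.4% called against 19.2% of all genes tested, with a median log2FC of 0.04 against 0.0026. LAMB3 had a parental mean of 8.23 CPM ± 9.23 and a restored-labelled mean of 41.6 CPM ± 15.9 (log2FC 2.36 ± 0.57 SE, edgeR adjusted p = 0.0172). Parental replicate 1 held 22.1 CPM of it and the other parental libraries 3.44 to 3.86 CPM, and without that library the LAMB3 log2FC was 3.52. LAMA3 had 27.5 CPM ± 1.89 and 12.3 CPM ± 2.53 (SD, n = 4 each), a log2FC of -1.16 ± 0.17 SE with adjusted p = 0.0013 in edgeR. PLEC, encoding plectin, had means of 238 CPM ± 14.3 and 245 CPM ± 24.1 (edgeR adjusted p = 0.839). Without parental replicate 2, 1 gene rose and 1 fell, and LAMB3 missed the threshold (adjusted p = 0.0553). The number lower was also 1 without parental replicate 3 or restored replicate 3. The same number came with total counts only, without an expression filter, with the replicate block or with the GC and length offset.

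**Figure D2:**
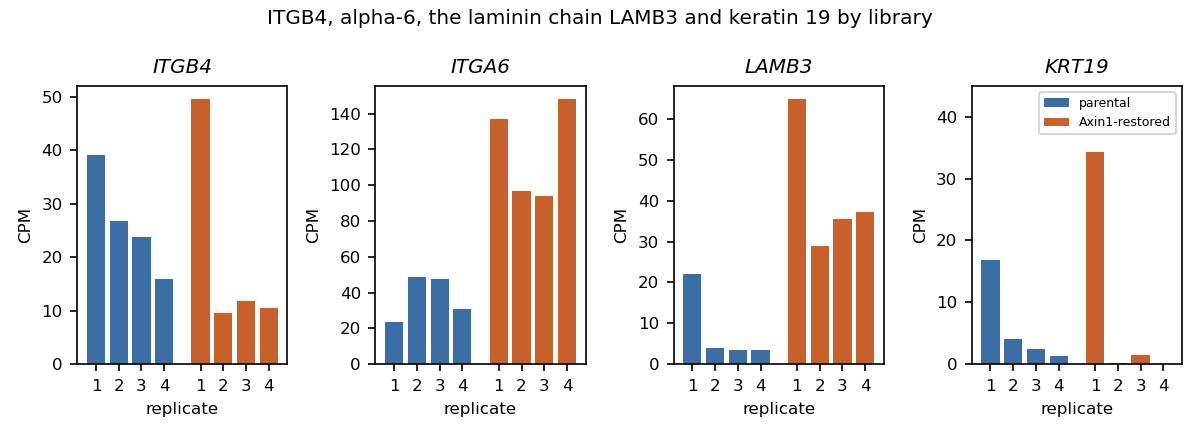
Level in CPM (y axes, each from 0) of ITGB4, ITGA6, LAMB3 and KRT19 in the 4 parental (blue) and 4 Axin1-restored (orange) libraries, 1 bar per library, numbered by replicate. ITGB4 and KRT19 are both highest in restored replicate 1 (49.5 and 34.4 CPM), whereas ITGA6 is high in all 4 restored-labelled libraries.

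ITGB1BP1 (ENSG00000119185, chromosome 2, 9403475 to 9423547, minus strand) encodes ICAP-1, which binds the distal NPxY site of the beta-1 tail and competes there with activators of the integrin. The parental libraries held 54.8, 60.2, 57.4 and 68.1 CPM and the restored-labelled libraries 64.5, 59.4, 61.1 and 54.6 CPM, again in replicate order. The groups covered nearly the same range, with means of 60.1 CPM ± 5.73 and 59.9 CPM ± 4.12 (SD, n = 4 each). The log2FC was -0.01 ± 0.12 SE (edgeR adjusted p = 0.979), and the interval of the fold ran from 0.835 to 1.19. Of its annotated exon bases, 33.1% overlap exons of ASAP2 on the opposite strand, a gene at 4.16 CPM ± 1.16 and 6.15 CPM ± 3.30, and the strand setting of the counting is not given in the sources used here. KRIT1, whose protein ICAP-1 also binds, did not pass the test (36.5 CPM ± 2.20 and 33.4 CPM ± 5.47, edgeR adjusted p = 0.576). CCM2, the partner of KRIT1, fell from a mean of 50.5 CPM ± 6.13 to 26.3 CPM ± 3.58 (log2FC -0.95 ± 0.14 SE, edgeR adjusted p = 0.0016).

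ITGB3BP (ENSG00000142856, chromosome 1, 63440770 to 63593721, minus strand) is named for binding the beta-3 tail, but its protein is better known as the inner kinetochore subunit CENP-R. The beta-3 gene ITGB3 was barely detected here. For ITGB3BP the parental values were 9.97, 17.1, 21.6 and 15.9 CPM and the restored-labelled values 20.5, 23.3, 19.3 and 27.7 CPM. Only parental replicate 3 reached into the restored-labelled range. Mean levels were 16.1 CPM ± 4.77 and 22.7 CPM ± 3.73 (SD, n = 4 each). The log2FC of 0.49 ± 0.22 SE (interval 0.0076 to 0.98) had an unadjusted p of 0.0471 and an adjusted p of 0.144, both from edgeR. The log2FC was 0.32 without parental replicate 1, its lowest value in any alternative, and 0.66 without parental replicate 3, its highest. It did not pass the threshold in any alternative, where its adjusted p ranged from 0.0745 to 0.343. Of its exon bases, 3.61% overlap PGM1 on the opposite strand, a more abundant gene at 142 CPM ± 24.2 and 96.5 CPM ± 21.3 (edgeR adjusted p = 0.0562), and 2.40% overlap EFCAB7.

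The other CENP genes of the inner kinetochore, 16 of 16 tested, gave 3 higher and 0 lower, or 18.8%, close to the 19.2% of all genes tested. Their median log2FC was 0.27, against 0.0026 for all genes tested. Of the 16, 14 were above 0, as were 7173 of all 14289 genes tested. CENPK rose from 4.18 CPM ± 1.42 to 8.50 CPM ± 1.21 (log2FC 1.02 ± 0.26 SE, edgeR adjusted p = 0.0194), and CENPW and CENPQ passed with adjusted p of 0.0423 and 0.0445. The count rested on single libraries. It was 0 without parental replicate 2, parental replicate 3 or restored replicate 4, and 1 without restored replicate 2, and the median was 0.14 without parental replicate 1.

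**Figure D3:**
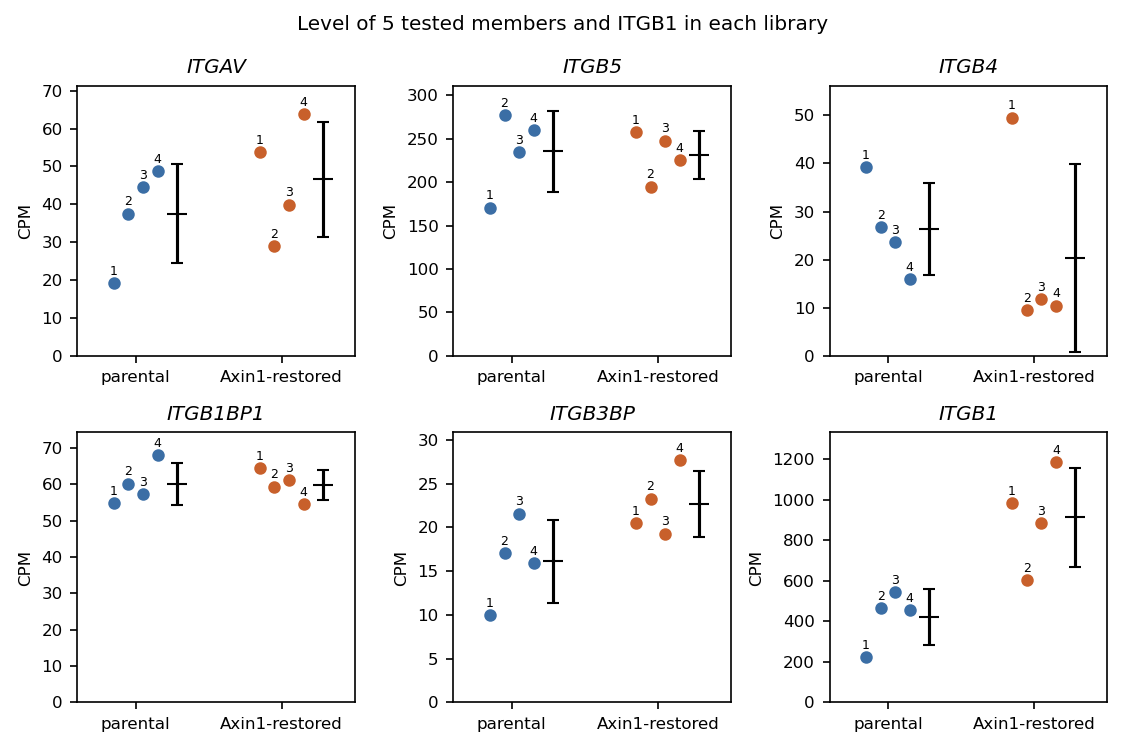
Level in CPM (y axes, each from 0) of the 5 tested members and ITGB1 in the 4 parental (blue) and 4 Axin1-restored (orange) libraries. Points are single libraries numbered by replicate, and the black bars give the mean ± SD of each group. Groups overlap for all members but not for ITGB1, whose highest parental value is 544 CPM and lowest restored-labelled value 602 CPM.

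Taking the members as a set, 0 of the 5 tested passed an adjusted p under 0.05 in edgeR's quasi-likelihood test, where 19.2% of all 14289 genes tested did (10.4% higher and 8.77% lower in the restored-labelled group). DESeq2 and limma-voom also called 0, and 1 member, ITGB3BP, had an unadjusted p under 0.05. With total counts in place of TMM scaling, 66.5% of the calls were higher, against 54.2% here. In 0 of the 5 tested members were the groups free of overlap, which was so for 23.9% of the genes tested (12.7% higher and 11.2% lower). The median log2FC of the 5 was -0.01. A p that misses the threshold does not show that these genes were equal in the groups, and the intervals above give the size of change that remains possible for each.

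**Figure D4:**
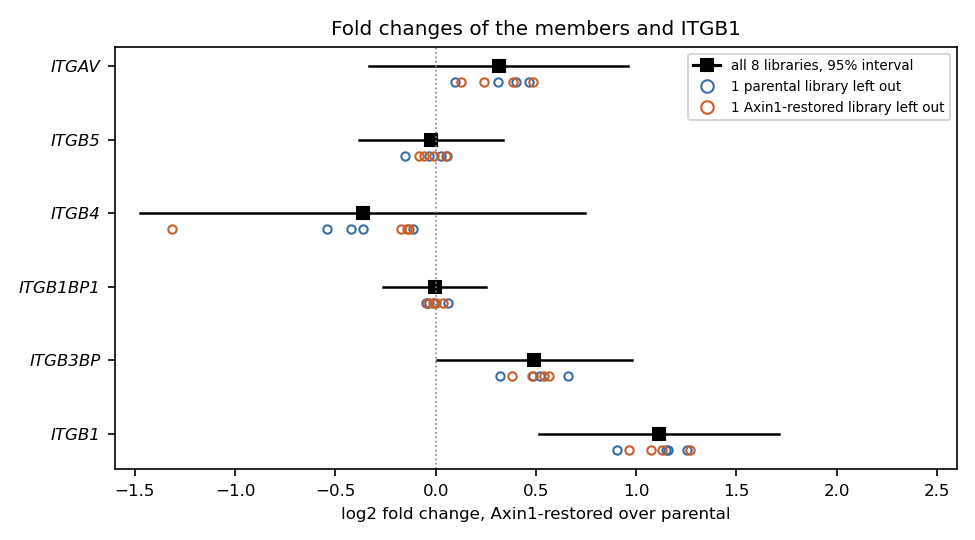
Log2 fold change, Axin1-restored over parental (x axis), of the 5 tested members and ITGB1 (rows). Black squares and lines give the estimate and 95% interval from all 8 libraries, and open circles the estimate with 1 parental (blue) or 1 Axin1-restored (orange) library left out. The ITGB4 estimate moves from -0.36 to -1.31 without restored replicate 1 and to -0.11 without parental replicate 1.

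Per kilobase of exon, the members kept the same leading order in both groups. In the parental libraries ITGB5 stood at 36.5 ± 7.22 CPM per kilobase, ITGB1BP1 at 9.001 ± 0.859, ITGAV at 4.57 ± 1.59, ITGB4 at 3.90 ± 1.43 and ITGB3BP at 2.95 ± 0.874 (SD, n = 4 each). ITGB5 lay above ITGB1BP1, and ITGB1BP1 above ITGAV, without overlap between libraries in either group. ITGAV, ITGB4 and ITGB3BP overlapped their neighbours in the order. In the restored-labelled libraries ITGB5 stood at 35.9 ± 4.33, ITGB1BP1 at 8.97 ± 0.617, ITGAV at 5.67 ± 1.86, ITGB3BP at 4.16 ± 0.682 and ITGB4 at 3.004 ± 2.88 CPM per kilobase. ITGB1 stood above them all in group means, at 70.2 ± 22.9 and 151.97 ± 40.4, although it overlapped ITGB5 among the parental libraries. The place of ITGB3BP depends on the length used: with the longest transcript in place of all annotated exons it moved up to next after ITGB5.

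Several of the remaining integrin subunits were called. Of the 20 other subunits, 11 were tested, 5 rose (ITGB1, ITGA1, ITGA3, ITGA6 and ITGA10) and 0 fell, or 45.5% called against 19.2% of all genes tested, with a median log2FC of 0.73 against 0.0026. These alpha subunits are all partners of beta-1, and alpha-6 is also that of beta-4. In 1 of the 11 tested subunits the restored-labelled libraries lay wholly below the parental ones. Without replicate 1 of both groups 5 were higher and 1 lower, with a median log2FC of 0.45. Without an expression filter 1 was also lower. ITGA1, part of a collagen receptor, rose from 35.3 CPM ± 5.56 to 73.7 CPM ± 12.9 (log2FC 1.06 ± 0.16 SE, edgeR adjusted p = 0.0016). ITGA3, part of a laminin receptor, rose from 9.03 CPM ± 3.88 to 27.1 CPM ± 4.71 (log2FC 1.59 ± 0.27 SE, edgeR adjusted p = 0.0028). ITGA5, which with beta-1 forms the main fibronectin receptor, had means of 282 CPM ± 44.7 and 255 CPM ± 39.7, and its edgeR adjusted p was 0.548.

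Among ligands of alpha-V integrins and the latent TGF-beta complexes they act on, 25 genes were listed, 16 were tested, 6 rose (VTN, L1CAM, FGA, FGB, FGG and LTBP1) and 3 fell (FN1, TGFB1 and LTBP3). That is 56.2% called against 19.2% of all genes tested, with a median log2FC of 0.74 against 0.0026. FGA, FGB and FGG encode chains of the same protein, fibrinogen, so their calls do not stand for separate ligands. VTN, encoding vitronectin, rose from 429 CPM ± 76.8 to 1016 CPM ± 136 (log2FC 1.24 ± 0.16 SE, edgeR adjusted p = 0.00070). FGB and FGG, chains of fibrinogen and like VTN products of hepatocytes, rose by a log2FC of 2.05 ± 0.18 SE and 1.60 ± 0.17 SE (adjusted p in edgeR 6.4e-05 and 0.00023). The 9 hepatocyte markers, FGB among them, did not move one way: 2 rose and 2 fell, and 4 had a log2FC above 0. Their summed level, 23428 to 27289 CPM in the parental and 18119 to 21602 CPM in the restored-labelled libraries, had SERPINA1 as its largest part in all 8. Their part in the ligand result was not tested. L1CAM, a neural adhesion molecule that binds alpha-V dimers, rose at a low level, from 0.197 CPM ± 0.139 to 1.91 CPM ± 0.306. FN1, encoding fibronectin, fell from 1059 CPM ± 366 to 457 CPM ± 115 (log2FC -1.21 ± 0.27 SE, edgeR adjusted p = 0.0121), with parental replicate 1, at 546 CPM, inside the restored-labelled range of 383 to 626 CPM.

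Within the latent complex, TGFB1 fell from 139 CPM ± 14.01 to 92.4 CPM ± 6.92 (log2FC -0.59 ± 0.12 SE, edgeR adjusted p = 0.0066), whereas LTBP1, which tethers the latent form to matrix, rose from 1.62 CPM ± 0.475 to 12.8 CPM ± 5.97 (log2FC 2.98 ± 0.38 SE, edgeR adjusted p = 0.000605). The number of listed genes lower was 7 without restored replicate 1 and 2 without parental replicate 2 or without restored replicate 2, 3 or 4. Of 14 genes that commonly respond to TGF-beta, 1 rose (TGFBI, log2FC 0.83 ± 0.18 SE, edgeR adjusted p = 0.0113) and 1 fell (SKI, log2FC -0.44 ± 0.12 SE, adjusted p = 0.0250), or 14.3% against the background of 19.2%. TGIF1 was not called (log2FC 0.34, edgeR adjusted p = 0.108). The number lower was 4 without restored replicate 1 and 0 without parental replicate 2, parental replicate 4, restored replicate 2 or restored replicate 3. With all 8 libraries it was also 0 with total counts only, without an expression filter or with the replicate block.

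Listed genes for proteins that bind beta tails or act for or against integrin activation, with CCM2 included as the partner of KRIT1, moved in both directions. Of 23 listed genes 20 were tested, 6 rose (TLN1, FLNA, DAB2, DOK1, TNS2 and TNS4) and 3 fell (CCM2, TNS1 and ILK). That is 45% called against 19.2% of all genes tested, with a median log2FC of -0.10 against 0.0026. DOK1, which competes with talin for the tail, rose from 1.075 CPM ± 0.354 to 4.02 CPM ± 0.550, and TNS2, a tensin, from 9.06 CPM ± 2.93 to 25.2 CPM ± 4.76. For DOK1 the log2FC was 1.91 ± 0.29 SE (edgeR adjusted p = 0.0014), for TNS2 1.48 ± 0.23 SE (adjusted p = 0.0016) and for the talin gene TLN1 1.11 ± 0.14 SE (adjusted p = 0.00057). Without replicate 1 of both groups the number lower was 6. It was 2 without parental replicate 2, restored replicate 3 or restored replicate 4.

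The promoter windows found for the members did not hold CTTTGA, letters of the TCF/LEF site. RefSeq windows of 300 bases around gene starts (GRCh38.p14) were matched for 6 of the 8 members, 10 windows in all. The letters CTTTGA, searched on both strands, occurred in 0 of these, in 0 of the 2 ITGB1 windows and in 12.9% of all 35116 windows. The search says only that these letters are absent from these windows. Other forms of the site were not searched, and ITGB3 and ITGB4 had no window.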

How the data were processed

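Groups and replicate numbers come from the sample titles, and each of the 8 columns was matched by its name in the labels. Values in the deposited table are counts for each gene, whole numbers with no normalization. Per the submitters' processing notes, bcl2fastq, fastp 0.23.1, STAR 2.7.4 and GRCh38 were used; the counting program, its strand setting and the annotation are not given in the sources used here. Coordinates, lengths and overlaps are from GENCODE release 29 on GRCh38, where 57943 of 58206 identifiers matched.

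After filtering with filterByExpr (minimum count 10, minimum total 15) and TMM scaling, genes were tested without covariates in edgeR 4.0.16 (quasi-likelihood, R 4.3.3), two-sided, with Benjamini-Hochberg adjustment over 14289 genes and a threshold of 0.05. A standard error is the size of the log2 fold change divided by the root of its F value. Intervals cover 95%. CPM values use TMM-scaled totals, log2 CPM a prior count of 2. On simulated data edgeR recovered 56.8% of 2-fold and 88.8% of 4-fold changes, with 6% of its calls false. DESeq2 recovered 73.7% and 89.8%, with 19.8% of its calls false, and limma-voom 57.9% and 87.8%, with 6.62% false. In the simulation 193 of 14077 genes were changed, dispersions came from the edgeR fit and no library was made to stand apart. In the data 19.2% of genes were called and replicates 1 stood apart, so these rates need not hold for them. Alternatives were run with DESeq2 1.42.0, limma 3.58.1, other scalings, filters and thresholds, a GC and length offset (splines, 5 degrees of freedom), thinning to 11232951 counts, a replicate block, and each library left out.

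Members and lists were chosen with earlier results of these data known. Named genes are the members, ITGB1, markers, the 3 smallest p-values per list and the 5 nearest to ITGAV; ITGA5, VTN, FN1, TGFB1, L1CAM, KRT19, KRIT1, CCM2, ASAP2, PGM1, PLEC, PECAM1, AXIN1 and other genes named without values were chosen later, with their values known, as were the ratios and the analysis without both replicates 1.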

Additional observations from a re-analysis of the deposited data

Results flagged for a closer look

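Within-group gaps were examined for the 44 named genes, the 4 ratios and the beta-5 share, 98 groups of 4 libraries in all. A library counted as standing apart when its gap to the nearest library took up more of the group's range than Dixon's 95% critical value. Chance gives this in about 1 in 20 groups of independent, unselected values. Of the 98 groups, 10 showed it, 5 of them in restored replicate 1 and 3 in parental replicate 1. KRT19, AXIN1 and other genes were chosen with their values known, and the ratios and the share reuse named genes. The 98 groups are thus neither independent nor unselected, and the rates cannot be compared directly.

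ITGB4 stood apart in restored replicate 1, at 49.5 CPM against 11.8 CPM for the next library. KRT19 did so in the same library, at 34.4 CPM against 1.43 CPM. TLN1 (435 CPM against 341) and TNS2 (32.3 CPM against 23.6) were also highest there, and FGB was lowest there, at 2257 CPM against 3452. In parental replicate 1, LAMB3 (22.1 CPM against 3.86) and TNS2 (13.4 CPM against 7.84) were high and ITGA1 (26.97 CPM against 37.8) was low. DOK1 was high in parental replicate 3, at 1.60 CPM against 0.948. AXIN1 was low in restored replicate 4, at 37.7 CPM against 47.6.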

How the results depend on the processing

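The number of members called was 0 in every alternative except without restored replicate 1 and without replicate 1 of both groups, where it was 1 (ITGB4). With 1 library left out it ranged from 0 to 1. The number of all genes called was 964 at an adjusted p under 0.01, 4623 without replicate 1 of both groups, and 1394 to 3523 with 1 library left out (1394 without restored replicate 4, 1508 without parental replicate 2, 1531 without restored replicate 3).

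Signs of some values changed. With 1 library left out the log2 fold change ranged from -0.15 to 0.0586 for ITGB5, from -0.0490 to 0.0590 for ITGB1BP1, from -0.00538 to 0.0847 for PLEC, from -0.0428 to 0.32 for ATE1 and from -3.40 to 1.82 for KRT19. With total counts only, ITGB5 was at 0.0503 and ITGB1BP1 at 0.0721. ITGB1BP1 was at 0.0207 without an expression filter and 0.0214 with thinned counts. Without replicate 1 of both groups TRUB1 was at -0.0204, ATE1 at -0.10, WDFY1 at -0.0207, RAD21 at -0.0334 and KRT19 at -2.17. KRT19, at 0.59 over all 8 libraries, was at -1.64 in limma-voom and -1.14 with the replicate block. The cause was not tested.

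Over all genes tested, the replicate numbers showed no pairing: same-numbered libraries' deviations correlated at -0.0629, 0.00667, -0.0324 and 0.227. Such a correlation does not show whether same-numbered libraries shared an effect in single genes. The replicate block gave 2033 genes, with ITGB4 at -0.68 ± 0.28 SE (edgeR adjusted p = 0.149) and FN1 at an adjusted p of 0.0518, and 0 members called. Without the block the SE of ITGB4 was 0.50. CENP genes higher numbered 1 with the replicate block or with the GC and length offset. The ITGB5 share was 99.9% in both groups when ITGB1 was left out. Longest-transcript lengths changed the rank of 4 genes in the parental and 3 in the restored-labelled group. With 1 library left out, the log2 ratio differences ranged from 0.72 to 0.86 (ITGB1 to ITGAV), 1.01 to 1.30 (ITGB1 to ITGB5), -0.47 to -0.16 (ITGB5 to ITGAV) and -0.62 to -0.26 (ITGA5 to ITGAV). Depth limits ITGB3, ITGB6 and ITGB8, which held at most 3 counts per library. Whether exons shared with another gene lowered the counts of ITGB3 and ITGB6 was not tested.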
